A study of Saccharomyces cerevisiae with 12 samples.

Results

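The PAU genes of the budding yeast Saccharomyces cerevisiae encode seripauperins, a large family of small serine-poor proteins. The 10 members described here were taken by the open reading frame names of PAU1 (YJL223C), PAU2 (YEL049W), PAU3 (YCR104W), PAU4 (YLR461W), PAU5 (YFL020C), PAU6 (YNR076W), PAU7 (YAR020C), PAU14 (YIL176C), PAU17 (YLL025W) and PAU21 (YOR394W). All 10 were among the 5974 probes of the deposited table. RNA came from 6 groups with 2 arrays each, lettered A and B. They were a 3 hour shift from air to nitrogen, started at an OD600 of 0.8, in ixr1 null and in wild type cells; overnight hypoxia under 1% oxygen in anaerobic jars, in ixr1 null and in wild type cells; and growth in air in ixr1 null and in wild type cells. Every group came from the EUROSCARF strain BY4741, kept at 30 C in complete synthetic medium whose glucose was 2%. Only the hypoxia medium held ergosterol (20 mg/l) and Tween 80 (0.5%), so in the comparison of hypoxia with air the oxygen, these additions and the overnight culture cannot be told apart.

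Seripauperins belong to the same wall protein superfamily as the DAN and TIR mannoproteins. Most of their genes lie near chromosome ends, and many are repressed in air by heme-dependent regulators and expressed when oxygen is scarce or during alcoholic fermentation. What most single members do is not known. Pau1 and Pau14 have the same protein sequence, and so do Pau21 and Pau22, so probes of the family can cross-hybridise. No source used here gives the probe sequences, and cross-hybridisation was not tested. A probe's signal is therefore read below as the signal at that PAU probe, which may include RNA of its relatives.

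The deposited values are linear intensities of 32P-labelled cDNA on arrays of open reading frames, scaled to a mean near 1 on every array. Exact zeros numbered 3489 and 1799 on shift arrays A and B of ixr1 null cells and 834 and 69 on those of wild type cells. The rank correlation of arrays A and B was 0.590 in the ixr1 null shift group and 0.692 in the wild type shift group, against 0.830 to 0.917 in the other groups. The IXR1 probe went against the null label. It read 3.60 and 3.01 on the shift arrays labelled ixr1 null, against 4.003 and 3.338 on the wild type shift arrays. In hypoxia it read 0.608 and 1.13 on the arrays labelled ixr1 null, against 0.441 and 0.399 on the wild type arrays, and in air 9.75 and 8.64 on the arrays labelled ixr1 null, against 8.11 and 7.03 on the wild type arrays. Where the probe lies in the gene, and so whether it falls in a deleted stretch, is not known here. Every array or cell called ixr1 null below is so called from its label alone. Of the genes mutated in BY4741, MET17 read at most 0.0404 and LEU2 at most 0.554 over the 12 arrays, while URA3 reached 0.997 and HIS3 1.44. The design text names both biological and technical replicates and does not say to which kind the letters refer. The p-values therefore reflect array-to-array spread that may be technical in origin. Differences below are log2 differences of quantile normalized intensity, given with their SE, and adjusted p-values run over all probes tested in a comparison, with a threshold of 0.05.

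In overnight hypoxia 8 of the 10 PAU probes, all but PAU17 and PAU21, read higher on all 4 hypoxia arrays than on all 4 air arrays. That order held for 10.1% of the probes with a value on these 8 arrays. The members past the threshold in hypoxia against air were 5 in ixr1 null cells (PAU3, PAU5, PAU6, PAU7 and PAU14), where 6.41% of all tested probes rose. In wild type cells 7 rose, the same 5 together with PAU2 and PAU4, where 5.09% of all tested probes rose. No member fell past the threshold in either genotype, where 5.58% of all tested probes fell in ixr1 null cells and 6.84% in wild type cells. The median member difference was 1.94 in ixr1 null cells and 1.95 in wild type cells, beside medians over all tested probes of -0.20 and 0.01. These differences spanned -3.13 to 5.28 in ixr1 null cells and -2.52 to 4.22 in wild type cells.

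**Figure D1:**
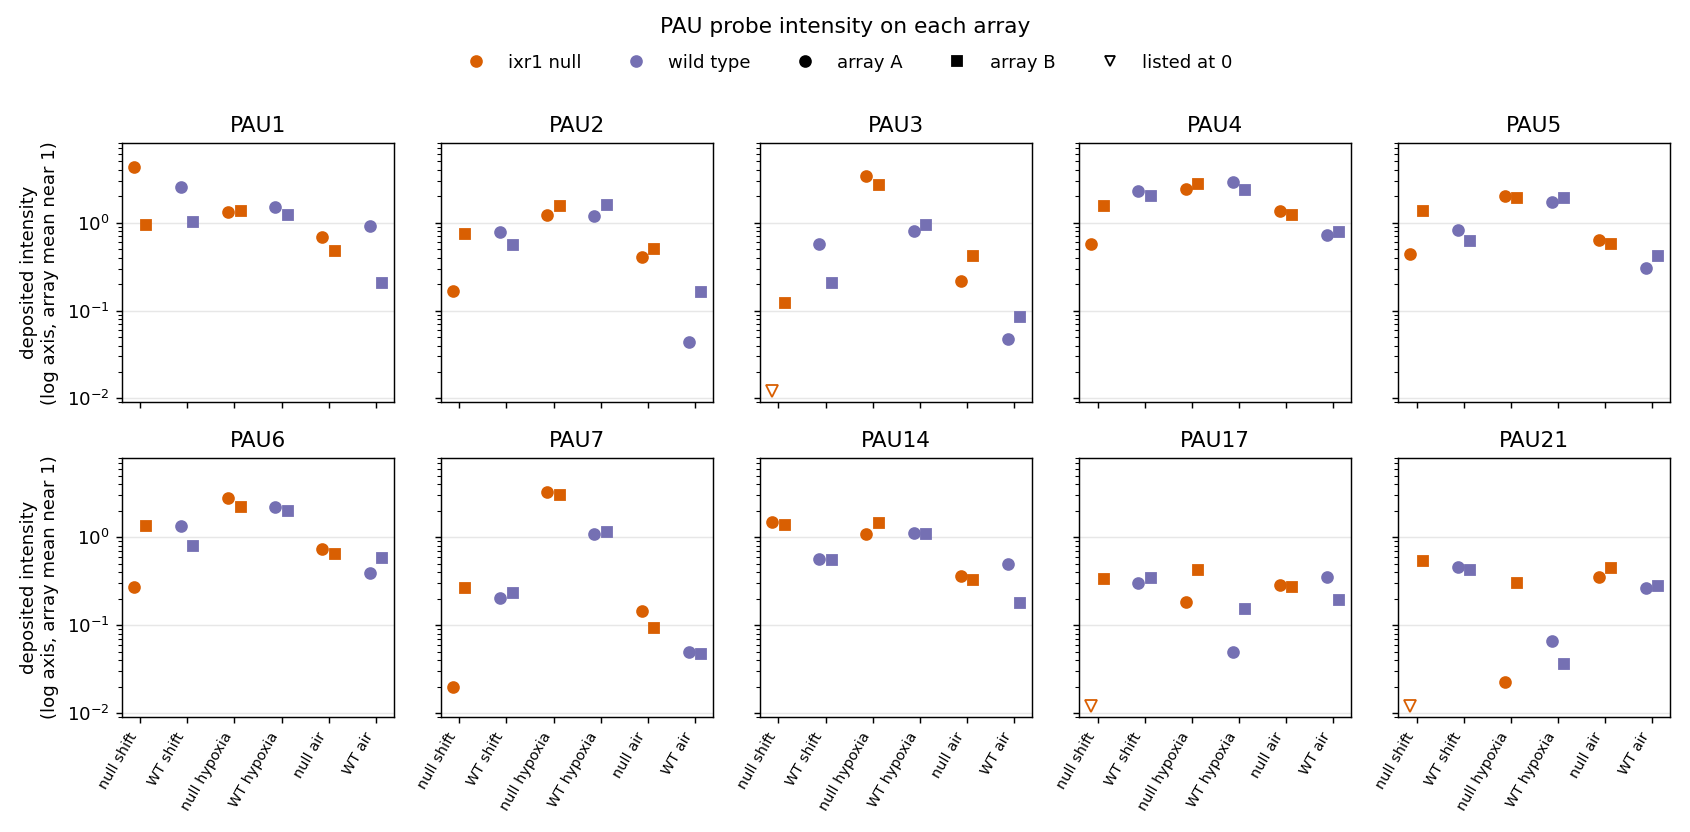
Deposited intensity of each PAU probe on each array (vertical log axis, array mean near 1), with ixr1 null arrays in orange and wild type arrays in purple, circles for array A, squares for array B and open triangles for values listed at 0. In 8 panels the 4 hypoxia arrays lie above the 4 air arrays; in the PAU17 and PAU21 panels they do not.

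PAU7, annotated with the shortest coding sequence of the 10, at 168 bp, had the largest hypoxia difference of the members in both genotypes. It read 3.28 and 3.07 on the ixr1 null hypoxia arrays, against 0.145 and 0.0928 on the ixr1 null air arrays. On the wild type arrays it read 1.10 and 1.14 in hypoxia, against 0.0501 and 0.0467 in air. The hypoxia and air readings lay far apart in both genotypes, and the readings of a pair were close to each other. The difference was 5.28 ± 0.48 in ixr1 null cells, a 39.0-fold rise (adjusted p = 0.00016), and 4.22 ± 0.48 in wild type cells, an 18.6-fold rise (adjusted p = 0.000319). Both calls held under the 10 alternatives tried for each. The wild type air readings were below the 10th percentile of the positive values of their arrays, so the size of that fold rests on dim readings.

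PAU3 read 3.36 and 2.66 on the ixr1 null hypoxia arrays, against 0.214 and 0.414 on the ixr1 null air arrays. In wild type cells it read 0.810 and 0.937 in hypoxia, against 0.0478 and 0.0852 in air. No hypoxia reading reached down to an air reading in either genotype. The rise was 14.1-fold in ixr1 null cells (3.82 ± 0.70, adjusted p = 0.00731) and 12.3-fold in wild type cells (3.62 ± 0.68, adjusted p = 0.0069). The ixr1 null call was lost without ixr1 null air array A (adjusted p = 0.067), and the wild type call without wild type air array A (0.0671) or wild type hypoxia array B (0.0559). Its reading on wild type air array A was below the 10th percentile, so the size of the wild type fold rests on a dim reading.

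PAU2 had its lowest values in wild type air. It read 1.23 and 1.56 on the ixr1 null hypoxia arrays, against 0.411 and 0.504 on the ixr1 null air arrays. In wild type cells the readings were 1.19 and 1.59 in hypoxia, against 0.0436 and 0.161 in air. Hypoxia readings of the genotypes overlapped, while the air readings were lower in wild type cells. The wild type difference of 3.99 ± 0.70 passed the threshold (15.9-fold, adjusted p = 0.00344) and kept passing under all 10 alternatives, with array A in air below the 10th percentile. The ixr1 null difference of 1.87 ± 0.71 did not pass (adjusted p = 0.139).

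PAU5, PAU6, PAU14 and PAU4 had smaller differences. PAU5 read 2.01 and 1.91 on the ixr1 null hypoxia arrays, against 0.631 and 0.576 on the ixr1 null air arrays, and 1.72 and 1.89 on the wild type hypoxia arrays, against 0.308 and 0.414 on the wild type air arrays. PAU6 read 2.81 and 2.22 in ixr1 null hypoxia, against 0.745 and 0.642 in ixr1 null air, and 2.21 and 1.99 in wild type hypoxia, against 0.389 and 0.589 in wild type air. For both probes all 4 hypoxia readings were above the highest air reading. PAU5 rose 4.03-fold in ixr1 null cells (2.01 ± 0.51, adjusted p = 0.0306), and its wild type rise was 2.32 ± 0.51 on the log2 scale (adjusted p = 0.013). PAU6 rose 4.51-fold in ixr1 null cells (2.17 ± 0.58, adjusted p = 0.0386) and 4.35-fold in wild type cells (2.12 ± 0.58, adjusted p = 0.0385).

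PAU14, which shares its protein sequence with PAU1, read 1.10 and 1.46 in ixr1 null hypoxia, against 0.359 and 0.324 in ixr1 null air. On the wild type arrays it read 1.13 and 1.09 in hypoxia, against 0.497 and 0.177 in air. The wild type air arrays differed from each other more than the other pairs did, and neither reached the hypoxia readings. It rose 4.46-fold in ixr1 null cells (2.16 ± 0.51, adjusted p = 0.0204) and 3.43-fold in wild type cells (1.78 ± 0.51, adjusted p = 0.0458). PAU4 read 2.44 and 2.76 in ixr1 null hypoxia, against 1.35 and 1.23 in ixr1 null air, and 2.89 and 2.33 in wild type hypoxia, against 0.715 and 0.777 in wild type air. It rose 3.31-fold in wild type cells (1.73 ± 0.48, adjusted p = 0.0416), while the ixr1 null difference of 1.31 ± 0.48 did not pass (adjusted p = 0.122).

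Many of these calls were lost when 1 array was left out, which leaves that group with 1 array assumed to vary like the other groups. In ixr1 null cells, in place of 5 members, 1 rose when air array A was left out and 2 when air array B was. When ixr1 null hypoxia array A was left out 3 rose, and when array B was, 2 rose and PAU21 fell. In wild type cells, in place of 7 members, 3 rose when air array A was left out and 4 when air array B was. When wild type hypoxia array A was left out 3 rose, and when array B was, 2 rose. In ixr1 null cells PAU5 and PAU6 lost their calls whichever of the 4 arrays was left out, and PAU14 lost its call without either air array or hypoxia array B. In wild type cells PAU4 and PAU6 lost theirs whichever of the 4 arrays was left out. There PAU5 lost its call without air array A or either hypoxia array, and PAU14 without air array B or either hypoxia array. The hypoxia differences of the called members kept their sign under every alternative run, while their size moved. PAU4 in wild type cells ran from 1.56 to 1.91 and PAU5 in ixr1 null cells from 1.61 to 2.20. PAU14 in wild type cells ran from 1.20, without air array B, to 2.38, and was 1.78 with all arrays.

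PAU1 passed the threshold in none of the 11 comparisons, and PAU17 and PAU21 in none of those in which they had a test, which leaves out the ixr1 null shift. The 4 hypoxia readings of PAU1 lay between 1.21 and 1.50 and its 4 air readings between 0.206 and 0.923. Its differences were 1.45 ± 0.85 in ixr1 null cells (adjusted p = 0.357) and 1.45 ± 0.83 in wild type cells (adjusted p = 0.365). These SEs were larger than those of the members that were called.

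PAU17 and PAU21 lay on the other side of zero. PAU17 read 0.183 and 0.421 in ixr1 null hypoxia, against 0.287 and 0.270 in ixr1 null air, and 0.0493 and 0.153 in wild type hypoxia, against 0.355 and 0.194 in wild type air. PAU21 read 0.0226 and 0.299 in ixr1 null hypoxia, against 0.350 and 0.445 in ixr1 null air, and 0.0665 and 0.0360 in wild type hypoxia, against 0.264 and 0.280 in wild type air. Only PAU17 in ixr1 null cells had overlapping hypoxia and air readings, and its difference was -0.21 ± 0.59 (adjusted p = 0.887). How many of all probes had hypoxia readings below air without overlap was not counted. Without ixr1 null hypoxia array B, the PAU21 difference was -5.76 and passed the threshold (adjusted p = 0.00415). The other differences were -1.66 ± 0.58 for PAU17 in wild type cells (adjusted p = 0.115), -3.13 ± 1.22 for PAU21 in ixr1 null cells (adjusted p = 0.158) and -2.52 ± 1.18 for PAU21 in wild type cells (adjusted p = 0.254). Among all tested probes, the wild type differences stood at percentile 11.9 for PAU17 and 7.63 for PAU21, while those of the other 8 members stood between percentiles 89.1 and 98.4. In ixr1 null cells PAU17 stood near the middle, at percentile 49.8, and PAU21 at 4.40, with the other 8 between 84.9 and 98.5.

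**Figure D2:**
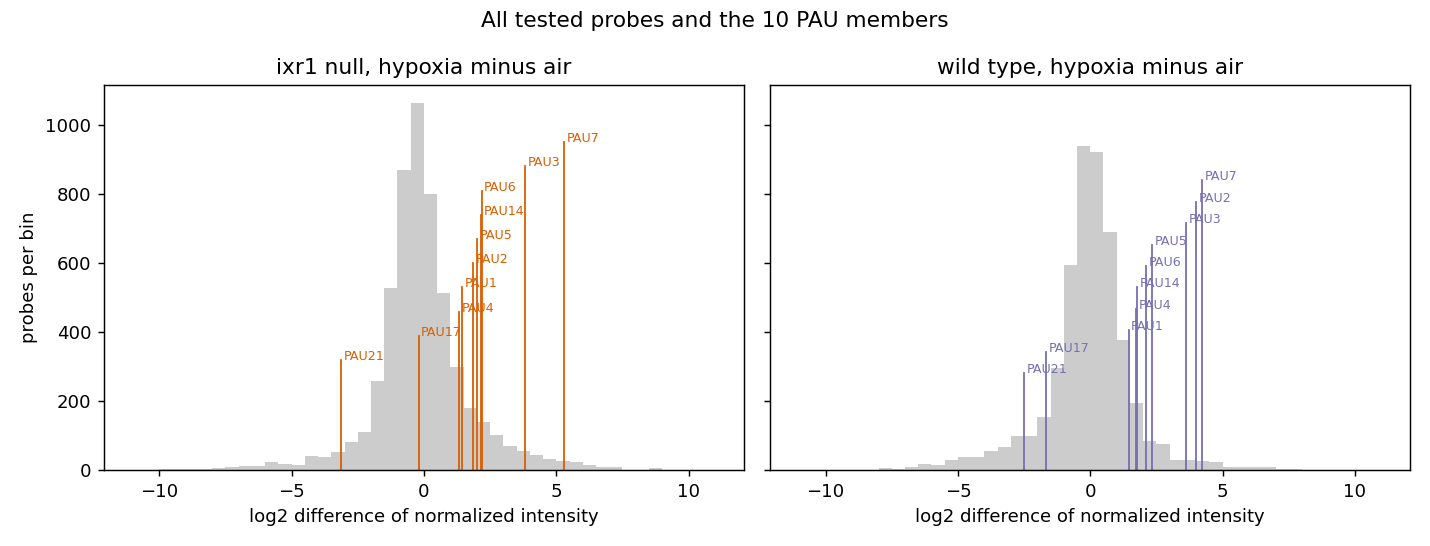
Histograms of the log2 difference of hypoxia minus air over all tested probes (bins of 0.5, horizontal axis in log2 units of normalized intensity, vertical axis in probes per bin), ixr1 null left and wild type right, with a line at each PAU member. Line heights only separate the labels. In each panel 8 members lie in the upper part of the distribution and PAU21 in the lower part.

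After the 3 hour shift, in wild type cells, both shift arrays lay above both air arrays, on normalized values, for 10 of the 10 members, an order that 23.4% of all tested probes had. None of these 10 differences passed the adjusted threshold, where 0.321% of all tested probes rose; at an unadjusted p under 0.05 there were 7, and 739 of the 4672 probes tested. Their median was 1.42, beside 0.04 over all tested probes, with a range of 0.47 to 3.19. The lowest was that of PAU17, whose deposited readings overlapped between shift and air.

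PAU2 came nearest to the threshold. It read 0.791 and 0.559 on the wild type shift arrays, against 0.0436 and 0.161 on the wild type air arrays, a difference of 3.19 ± 0.70 (adjusted p = 0.0744). PAU7 read 0.202 and 0.235 after the wild type shift, against 0.0501 and 0.0467 in air, a difference of 2.12 ± 0.48 (adjusted p = 0.0844). PAU3 read 0.571 and 0.203 after the wild type shift, against 0.0478 and 0.0852 in air, a difference of 2.49 ± 0.68 (adjusted p = 0.139). Shift arrays A and B differed more for PAU3 than for PAU7. PAU2 passed without wild type air array B (adjusted p = 0.0383) and PAU3 without wild type shift array B (0.0361), while 4 (PAU2, PAU3, PAU4 and PAU7) did without the shift B arrays of both genotypes. In that last fit the share of all tested probes called in either direction was 14.3%, against 0.749% with all arrays.

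The remaining wild type shift readings lay between those of hypoxia and air for most probes. PAU4 read 2.31 and 2.02, PAU5 read 0.833 and 0.622, PAU6 read 1.36 and 0.803, and PAU14 read 0.567 and 0.555 on the wild type shift arrays. All 8 of these readings were above the wild type air readings given above. PAU1 read 2.52 and 1.02, with array A above its hypoxia range. PAU21 read 0.456 and 0.421 and PAU17 0.301 and 0.349 after the wild type shift, above their wild type hypoxia readings.

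After the ixr1 null shift only 7 members could be tested, because array A listed PAU3, PAU17 and PAU21 at 0. On that array, with zeros at 58.4% of its probes, 4 members were below the 10th percentile of positive values or at 0. Against air 2 members, PAU14 and PAU7, passed the threshold, where 1.84% of all tested probes rose. The median over the 7 was 0.99, beside 0.30 over all tested probes. Its sign depended on the normalization. On the deposited scale it was -0.20, beside -0.29 over all tested probes, and with arrays centred on the median -0.69, beside -0.78. PAU14 read 1.48 and 1.38 on the ixr1 null shift arrays, against 0.359 and 0.324 on the ixr1 null air arrays, without overlap. It rose 5.74-fold (2.52 ± 0.47, adjusted p = 0.0255). That call was lost without either ixr1 null air array or without ixr1 null shift array A. It was also lost on the deposited scale (adjusted p = 0.082), centred on the median (0.149) and floored with zeros kept (0.0558). With the prior variance taken over all probes it was lost too (0.0622). The PAU14 difference stayed positive, at 1.58 to 2.76 over the 12 alternatives, of which 8 lost the call.

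PAU7 in the same comparison had no settled direction. It read 0.0198 and 0.262 on the ixr1 null shift arrays, against 0.145 and 0.0928 on the ixr1 null air arrays, so one shift reading was below both air readings and the other above. On normalized values, where the dimmest positive values of shift array A are raised, the difference was 2.08 ± 0.44 (adjusted p = 0.045). On the deposited scale it was -0.69, and with arrays centred on the median -1.18. The call was also lost when any 1 of the 4 arrays was left out. Of the untested members, PAU3 read 0.122, PAU17 0.339 and PAU21 0.545 on shift array B.

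PAU1 read 4.31 and 0.946 on the ixr1 null shift arrays and did not pass (2.16 ± 0.81, adjusted p = 0.251). Without the shift B arrays of both genotypes it passed (3.07, adjusted p = 0.0327), in a fit that called 24.3% of all tested probes in either direction, against 1.97% with all arrays. PAU2 read 0.165 and 0.742, PAU4 0.575 and 1.52, PAU5 0.442 and 1.37, and PAU6 0.271 and 1.35 on these arrays. For these 4 probes array A was below and array B above the ixr1 null air readings. PAU1 and PAU14 were the members whose array A reading was the higher of the pair.

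**Figure D3:**
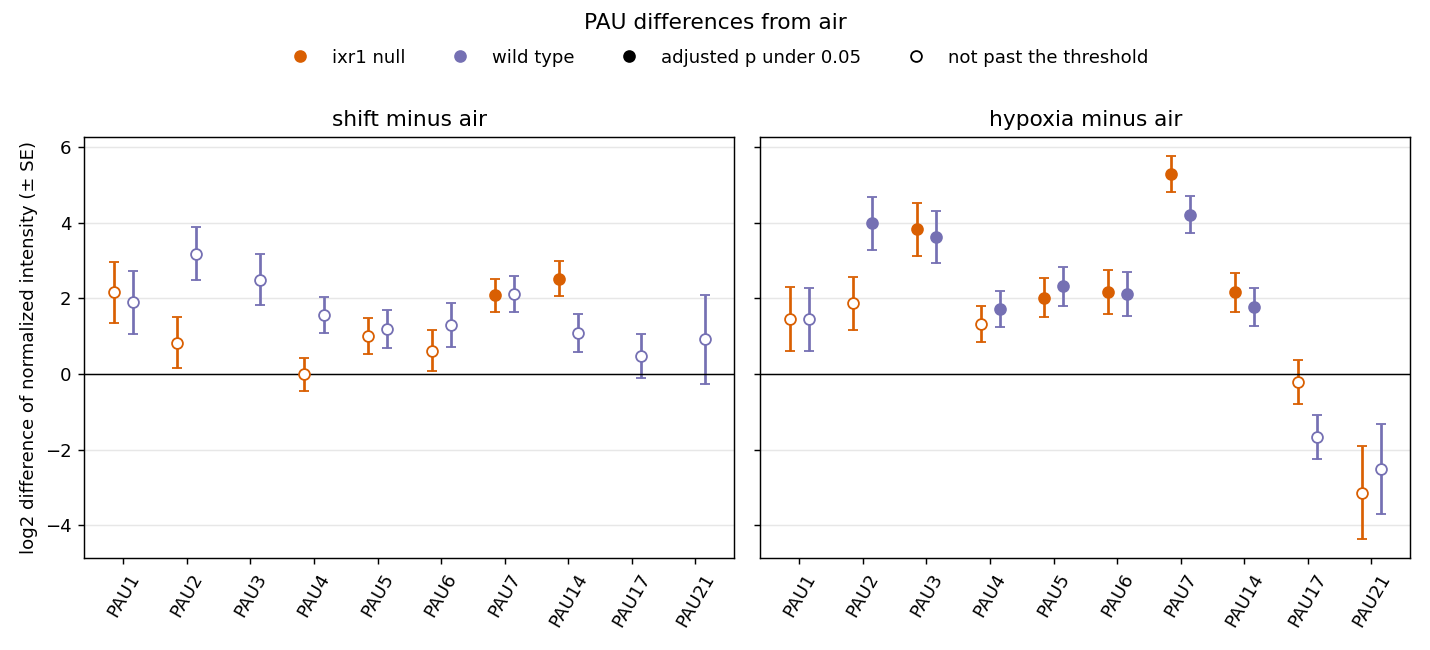
Log2 difference of normalized intensity from air (points, with SE bars) for each PAU probe, shift on the left and hypoxia on the right, ixr1 null in orange and wild type in purple, filled where the adjusted p is under 0.05. In hypoxia 5 ixr1 null and 7 wild type points are filled; after the shift 2 ixr1 null points and no wild type point are, and PAU3, PAU17 and PAU21 have no ixr1 null shift value.

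Set directly against overnight hypoxia, the shift left PAU7 lower in both genotypes. It read 0.0198 and 0.262 on the ixr1 null shift arrays, against 3.28 and 3.07 on the ixr1 null hypoxia arrays, and fell 9.20-fold (-3.20 ± 0.44, adjusted p = 0.000563), a call that held under all 12 alternatives. The dim reading of shift array A was raised by the normalization, and the difference was -5.46 on the deposited scale and -5.86 with arrays centred on the median. In wild type cells PAU7 read 0.202 and 0.235 after the shift, against 1.10 and 1.14 in hypoxia. It was 4.28-fold lower there (-2.10 ± 0.48, adjusted p = 0.0212), which did not pass on the deposited scale (adjusted p = 0.216) or centred on the median (0.429). The wild type call was lost without hypoxia array A (adjusted p = 0.134) or hypoxia array B (0.129), and with neither shift A array in the fit (0.0563). PAU7 was the single member called in either genotype, where 3.45% of tested probes in ixr1 null cells and 3.74% in wild type cells fell. The median over members was -1.04 in ixr1 null cells (7 tested) and -0.75 in wild type cells (10 tested), beside 0.61 and 0.04 over all tested probes. In ixr1 null cells 2 members fell without shift array A, 3 without shift array B, and 4 (PAU4, PAU5, PAU6 and PAU7) without the shift B arrays of both genotypes. Over all tested probes, the share called in either direction was 8.82%, 23.0% and 39.9% in these 3 fits, against 20.2% with all arrays. The wild type differences of PAU17 (2.12 ± 0.58, adjusted p = 0.0557) and PAU21 (3.43 ± 1.19, adjusted p = 0.128) ran the other way and did not pass. PAU17 passed with dim probes left out (adjusted p = 0.0417). The comparisons of shift and hypoxia with air share their air arrays, so their values are given side by side only.

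The series was made to ask how Ixr1, an HMG-box protein that binds DNA, takes part in the hypoxic response. The directions below rest on the null label, against which the IXR1 signal went. No PAU member differed between ixr1 null and wild type cells past the threshold in any condition. In air 0% of all tested probes were called. At an unadjusted p under 0.05 there were 382 of 5043 tested probes and 2 of 10 members. In hypoxia 0.279% of all tested probes were called. At an unadjusted p under 0.05 there were 771 of 5379 tested probes and 2 of 10 members. After the shift 0% were called, with 170 of 2231 tested probes and 2 of the 7 tested members at an unadjusted p under 0.05.

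The widest PAU differences between genotypes were those of PAU2, PAU3 and PAU7. In hypoxia PAU7 read 3.28 and 3.07 on ixr1 null arrays, against 1.10 and 1.14 on wild type arrays, a difference of 1.72 with a 95% interval of 0.64 to 2.79 (adjusted p = 0.172). PAU3 read 3.36 and 2.66 on ixr1 null hypoxia arrays, against 0.810 and 0.937 on wild type hypoxia arrays, a difference of 1.99 with an interval of 0.43 to 3.55 (adjusted p = 0.254). In air PAU2 read 0.411 and 0.504 on ixr1 null arrays, against 0.0436 and 0.161 on wild type arrays, a difference of 2.13 with an interval of 0.57 to 3.69 (adjusted p = 0.533). PAU3 in air read 0.214 and 0.414 on ixr1 null arrays, against 0.0478 and 0.0852 on wild type arrays, a difference of 1.79 with an interval of 0.24 to 3.34 (adjusted p = 0.575). None of these 4 pairs of readings overlapped, but the 4 were picked as the widest. The intervals here and below are not adjusted for that choice or for the number of probes tested. How many of all probes had no overlap in air was not counted. Both ixr1 null hypoxia arrays were above both wild type hypoxia arrays, on normalized values, for 5 of the 10 members (PAU3, PAU5, PAU6, PAU7 and PAU17), an order that 22.9% of all tested probes had.

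The difference of ixr1 null minus wild type in hypoxia was 0.13 for PAU4, with an interval of -0.94 to 1.20, and 0.21 for PAU5, with an interval of -0.95 to 1.36. For PAU14 it was 0.19, with an interval of -0.94 to 1.33. For PAU17, whose readings did not overlap, it was 1.15, with an interval of -0.18 to 2.48 (adjusted p = 0.404). These intervals span differences in either direction, so equality is not shown. After the shift PAU4 was lower in ixr1 null cells by a difference of -1.01 (interval -1.98 to -0.04, adjusted p = 0.644) and PAU14 higher by 1.26 (interval 0.23 to 2.30, adjusted p = 0.577), neither past the threshold.

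The test of whether the response itself differed between genotypes called no member. For hypoxia 0.145% of all tested probes were called. No member had an unadjusted p under 0.05, against 741 of the 4844 probes tested. PAU2, past the threshold in wild type cells alone, had an interaction of -2.12 ± 0.98 (adjusted p = 0.335), so its hypoxia response is not shown to differ between the genotypes. For PAU3 the interaction was 0.20 ± 0.96 (adjusted p = 0.944), and for PAU4 it was -0.41 ± 0.68 (adjusted p = 0.821). For the shift 0% of probes were called. At an unadjusted p under 0.05 there were 213 of 2178 tested probes and 2 of 7 members. These members were PAU2 (-2.36 ± 0.94, adjusted p = 0.448) and PAU4 (-1.55 ± 0.62, adjusted p = 0.448).

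Among themselves, the 8 members other than PAU17 and PAU21 correlated positively. These 8 were set apart by their hypoxia and air readings on the same arrays, so positive values follow in part from that choice. Pearson's r of the normalized log2 values over the arrays ran from 0.33 to 0.96 over their 28 pairs, with a median of 0.81. The closest pair was PAU5 and PAU6, at 0.96 over 12 arrays. PAU1 and PAU14, of the same protein sequence, stood at 0.80, while PAU1 stood at 0.33 to 0.48 with the other 6. PAU17 correlated with the 8 others at -0.42 to -0.01 and PAU21 at -0.65 to -0.18, and these 2 correlated with each other at 0.70, each over 11 arrays. These are descriptions over arrays that share their culture groups, and probes of one family may share target RNA.

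**Figure D4:**
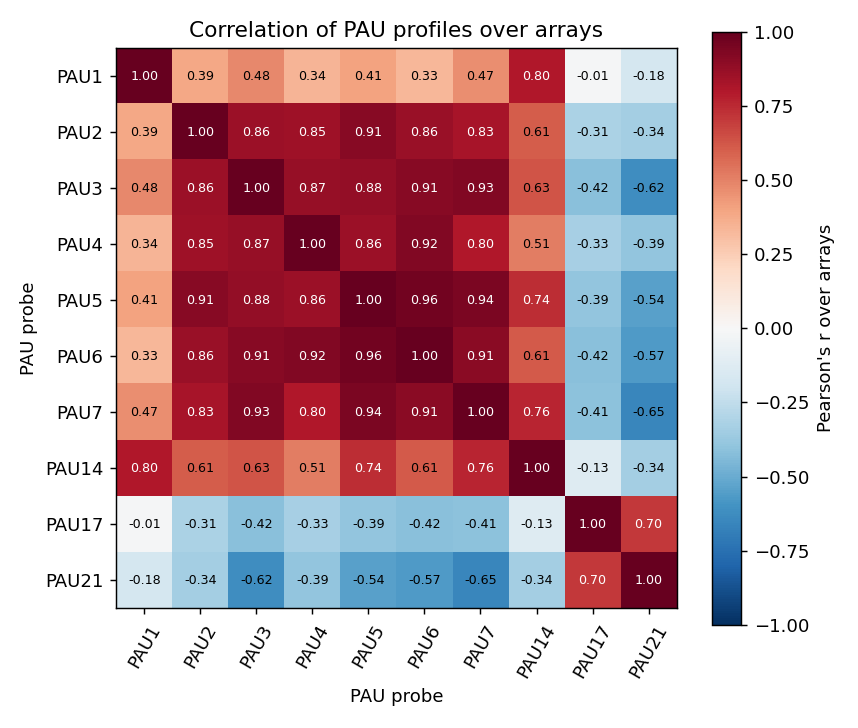
Pearson's r between the normalized log2 profiles of the 10 PAU probes over 11 or 12 arrays, on a scale of -1 (blue) to 1 (red). The block of 8 probes is red, with 0.96 between PAU5 and PAU6, and the PAU17 and PAU21 rows are pale or blue against it.

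With all PAU family probes set aside, of the probes with values on at least 10 arrays, 4851 in all, the 5 whose profile was most like the mean of the members were UTP15, DAN1, SPS100, CIK1 and KTD1. Their correlations with that mean were 0.93, 0.91, 0.88, 0.88 and 0.88, over 10 arrays for the first 4 and 12 for KTD1. Values listed at 0 were left out of these correlations. DAN1 was listed at 0 on shift array A of both genotypes, so its likeness to the members does not cover those arrays. Utp15 is a nucleolar factor of ribosome assembly, Dan1 a wall mannoprotein of anaerobic cells, Sps100 a spore wall protein, Cik1 a partner of the kinesin Kar3, and Ktd1 a defence factor against killer toxin. Among the PAU probes that are not members, PAU11 had the highest correlation with the mean, at 0.93 over 12 arrays. PAU5 and PAU2, at 0.92 and 0.91, were the members with the highest correlation with the mean, to which they contribute.

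The other PAU probes of the table numbered 10. In hypoxia against air 3 of them rose in ixr1 null cells and 2 in wild type cells, and none fell in either. The share of all tested probes that rose was 6.41% in ixr1 null cells and 5.09% in wild type cells. All 10 lay above zero in ixr1 null cells (median 1.68) and 9 in wild type cells (median 1.52). PAU11 rose in both genotypes, by 1.90 ± 0.49 in ixr1 null cells (adjusted p = 0.0322) and by 1.97 ± 0.49 in wild type cells (adjusted p = 0.0245). PAU12 rose by 2.33 ± 0.59 in wild type cells (adjusted p = 0.0265). Over the 20 measured PAU probes 8 rose in ixr1 null cells and 9 in wild type cells. PAU19 was the one probe of the other 10 that lay below zero in wild type cells (-1.44 ± 1.34, adjusted p = 0.622).

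The DAN, TIR and TIP1 wall mannoproteins, the nearest relatives, did not move as 1 group. Of 7 probes, 1 rose and 1 fell in ixr1 null cells, and 1 rose and 2 fell in wild type cells. Over all tested probes 6.41% rose and 5.58% fell in ixr1 null cells, and 5.09% rose and 6.84% fell in wild type cells. DAN1, of the anaerobic wall, rose by 5.62 ± 0.82 in ixr1 null cells (adjusted p = 0.00376) and by 4.84 ± 0.80 in wild type cells (adjusted p = 0.00465). TIR1, also a wall mannoprotein, fell, with a log2 difference of -4.16 in ixr1 null cells (adjusted p = 0.00435) and -4.32 in wild type cells (adjusted p = 0.00235). TIP1, a major wall mannoprotein of aerobic cells, had a difference of -0.19 in ixr1 null cells (adjusted p = 0.912), while it fell by 4.87 in wild type cells (adjusted p = 0.000866). The TIP1 signal in hypoxia was higher in ixr1 null than in wild type cells by 4.48 (adjusted p = 0.0405), and the interaction was 4.68 ± 0.94 (adjusted p = 0.0795). TIR2 had a wild type difference of 2.99 ± 1.08 that did not pass (adjusted p = 0.125).

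Of the listed regulators of anaerobic wall genes none rose and 1 fell in each genotype, out of 11 tested in ixr1 null cells and 10 in wild type cells. Of all tested probes 5.58% fell in ixr1 null cells and 6.84% in wild type cells. The regulator that fell was IXR1, with a log2 difference of -3.67 in the cells labelled ixr1 null (adjusted p = 0.000936) and -4.46 in wild type cells (adjusted p = 0.000266). TUP1, the corepressor, had a wild type difference of -2.31 ± 0.69 (adjusted p = 0.0569). MGA2, an activator of the desaturase gene OLE1, and SPT23, its relative, had wild type differences of 2.10 ± 0.79 (adjusted p = 0.134) and 0.58 ± 0.53 (adjusted p = 0.606). Of the 13 listed regulators, 12 were among the probes of the deposited table. UPC2, the activator of anaerobic wall genes, was not analysed here. None of the 11 listed subtelomeric COS genes was among the probes under the names used, so they were not analysed either.

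By the gene order of the RefSeq R64 annotation, 6 members lie within the 5 outermost annotated genes of a chromosome end: PAU1, PAU6 and PAU14 in position 2, PAU21 in position 3, and PAU3 and PAU4 in position 5. PAU7 is in position 15, PAU2 in 30, PAU17 in 39 and PAU5 in 46. The members that rose in hypoxia include both outer and inner positions, and PAU17 and PAU21 lie in one of each. The coding length was 363 to 375 bp for 8 members, 168 bp for PAU7 and 495 bp for PAU21.

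The measured genes next to the members gave 15 neighbours, of which 14 were tested in hypoxia against air. Of these 2 rose and 1 fell in each genotype. Over all tested probes the shares that rose and fell were 6.41% and 5.58% in ixr1 null cells, and 5.09% and 6.84% in wild type cells. Both genes beside PAU3 rose. ADH7, an alcohol dehydrogenase, rose by 5.64 in ixr1 null cells (adjusted p = 0.00331) and by 3.97 in wild type cells (adjusted p = 0.0111), and YCR102C, of the quinone reductase type, rose by 6.08 in ixr1 null cells (adjusted p = 0.00021) and by 3.53 in wild type cells (adjusted p = 0.00195). Beside PAU17, the Hsp70 gene SSA2 fell, with a log2 difference of -5.43 in ixr1 null cells (adjusted p = 0.00344) and -7.57 in wild type cells (adjusted p = 0.000332), while the disaggregase gene HSP104 on its other side had differences of 1.42 in ixr1 null cells (adjusted p = 0.0736) and 1.50 in wild type cells (adjusted p = 0.0581) that did not pass. PAU1 and PAU14, of the same protein sequence, have VTH2 and VTH1 as neighbours, which are near-identical copies of each other and whose differences did not pass in either genotype.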

How the data were processed

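Per the labels' protocols, oligo-dT primed the total RNA, and 32P-labelled first-strand cDNA went onto arrays of open reading frames. The authors deposited 1 table of linear intensity values, with 5974 probes on 12 arrays and no column without a sample. No source used here gives the scanner, the background subtraction, the scaling or the probe sequences. For this report the arrays were quantile normalized with zeros included, values deposited as 0 were set to missing, and log2 was taken. A probe was tested where all arrays of the groups compared had a value. A group-means model over all 12 arrays was fitted with variances moderated over the probes tested, which matched limma 3.58.1 under R 4.3.3 within 1e-08, with Benjamini-Hochberg adjustment and a threshold of 0.05 over 11 comparisons. The method was tested on simulated data. The settings and results of that test are not given here, so no conclusion on these arrays is drawn from it. Whether the method performs alike in groups whose arrays A and B differ as much as in the shift groups was not tested. Arrays carry no counts, so their number limits the precision. Gene names, order and coding lengths come from the RefSeq table of assembly R64 (5571 of 5974 names matched). The members and lists were chosen with earlier results of these data known. All members are named, those past the threshold at least once with every array. Other lists are described by counts with up to 4 genes, the 2 of smallest p each way in wild type hypoxia.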

Additional observations from a re-analysis of the deposited data

How the results depend on the processing

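The alternatives were the deposited scale, centring on the median, flooring with zeros kept, leaving out dim probes (the lowest 25%), a replicate block, leaving out arrays, and a prior variance over all probes, chosen after seeing the data. Counts of PAU members past the threshold are given below. For ixr1 null hypoxia against air (5) there were 2 on the deposited scale, 2 centred on the median and 1 to 3 without 1 array. For wild type hypoxia against air (7) there were 3 centred on the median, 4 with the prior over all probes and 2 to 4 without 1 array. For the ixr1 null shift against air (2) there were 0 on the deposited scale, centred or with the prior over all probes, 1 floored, 0 to 1 without 1 array, 0 without the shift A arrays and 3 without the shift B arrays. The PAU7 difference there reversed to -0.69 on the deposited scale and -1.18 centred, while the median of all probes was 0.30 in the main setting, -0.29 deposited and -0.78 centred. For the wild type shift against air (0) there was 1 floored, 0 to 1 without 1 array and 4 without the shift B arrays. For the ixr1 null shift against hypoxia (1) there were 2 floored, 1 to 3 without 1 array, 2 without the shift A arrays and 4 without the shift B arrays. For the wild type shift against hypoxia (1) there were 0 on the deposited scale or centred, 2 with dim probes left out (PAU7, which fell, and PAU17, which rose), 0 to 1 without 1 array and 0 without the shift A arrays. Fewer arrays leave fewer degrees of freedom; the other causes were not tested. The replicate block, with the letter as a term, left every count as it was, at 5 in ixr1 null and 7 in wild type cells for hypoxia against air. The differences of array A from array B correlated between the genotypes at 0.648 after the shift, 0.189 in hypoxia and 0.257 in air. Between groups of different conditions these correlations ran from -0.056 to 0.298, a range that holds the hypoxia and air values. The labels say only that such arrays share a letter. Comparisons of genotypes and interactions stayed at 0 members under all alternatives run.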
